A study of Mus musculus with 43 samples.

Results

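The comparison described here is between mouse lungs after 15 weeks of house dust mite (HDM) and mouse lungs after saline. The group given HDM, called HDM15wk, holds the 7 libraries whose labels name 15 weeks of HDM and no antibody, and the saline group holds 7 libraries, so that 14 of the 43 libraries of the series are compared. All mice of both groups, and of the whole series, carried a humanised Il33 gene (Il33hu/hu) on a mixed background of C57BL/6NTac (75%) and 129S6SvEvTac (25%). The other groups were 4 weeks of HDM (HDM4wk, 10 libraries), 15 weeks of HDM with an isotype control antibody (HDM15wk_Iso, 4 libraries) and 15 weeks of HDM with an antibody against IL-33 (15 libraries). Each library was made from total RNA of lung with a stranded mRNA kit. The saline libraries carry no time label and no label gives an age, so time in the study cannot be told apart from HDM. Both groups carry the humanised gene, and how its reads were assigned to Il33 is not stated in the labels.

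House dust mite is an airway allergen whose proteases and microbial products act on the epithelium, which answers with alarmin cytokines such as IL-33. Type 2 lymphocytes then release IL-4, IL-5 and IL-13, which drive eosinophils, mucus and alternatively activated macrophages, while IL-1, IL-6 and IL-17 family cytokines recruit neutrophils and switch on acute phase genes. In whole lung the counts also follow the mix of cells, so that for every gene below, fewer cells of a type and less RNA per cell cannot be told apart.

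Total counts ranged from 4909177 to 11507108 in HDM15wk libraries and from 7090950 to 12414078 in saline libraries. The numbers that the labels give the samples form a lower and a higher run, here number range 1 and number range 2. HDM15wk has 5 libraries in range 1 and 2 in range 2, against 2 and 5 for saline. The groups lay apart on the first principal component of the 14 libraries, which held 60.7% of the variance, from 27.4 to 96.9 in HDM15wk and from -64.4 to -45.6 in saline. HDM15wk replicate 1 stood apart on the second component, which held 14.2%, at 85.6, while the other 13 libraries lay between -29.9 and 14.6. This library gave 13.3% of its counts to 1 Entrez ID that RefSeq's gene table, used here, does not name. It gave 1.08% to Lars2, a mitochondrial tRNA synthetase gene. The highest shares were 4.44% and 0.397% in the other 6 HDM15wk libraries and 2.92% and 0.530% in saline. The deviation of HDM15wk replicate 1 from the median library followed gene GC content, with a rank correlation across genes of 0.67. The other 13 libraries ranged from -0.28 to 0.28. Deviations also followed gene length, with rank correlations of -0.33 to -0.02 in HDM15wk libraries and 0.02 to 0.34 in saline libraries, so this measure moved with the groups. Its part in the results was not tested beyond the correction for GC content and length given below. The labelled tissue showed in the surfactant gene Sftpc, at 15948 ± 5424 CPM in HDM15wk and 8652 ± 1151 CPM in saline (SD, n = 7 each), while the liver genes Alb, Apoa1 and Ttr had too few counts to test.

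**Figure D1:**
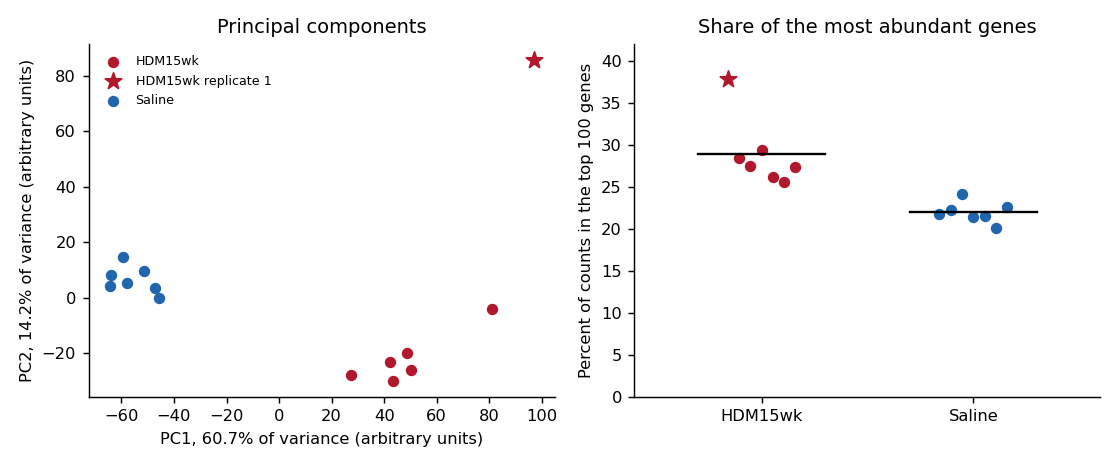
Each point is 1 library. The left plot gives the first and second principal components of log2 CPM over all tested genes, in arbitrary units, and the right plot gives the percent of counts in the 100 most abundant genes, with bars at the group means. HDM15wk replicate 1, drawn as a star, lies at 85.6 on the second component and at 37.8% on the right, above the other 6 HDM15wk libraries at 25.6% to 29.3% and the saline libraries at 20.1% to 24.1%.

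Genes were tested with edgeR's quasi-likelihood test, with number range as a covariate and Benjamini-Hochberg adjustment over all tested genes, and a gene passed, or was called, at an adjusted p under 0.05. Levels are in CPM, counts scaled to the size of the library, and 3 values for a group are its lowest, median and highest library. Changes are log2 fold changes of HDM15wk over saline ± standard error. This error was back-calculated from the test, as the size of the change over the square root of the F statistic. CPM are not per length, so levels are compared between groups and not between genes. Of 15598 tested genes, 4859 (31.2%) rose and 4376 (28.1%) fell at an adjusted p under 0.05, which together is 59.2%. A rise of at least 2-fold was called for 1585 genes (10.2%) and a fall of at least 2-fold for 1406 (9.01%), and at least 4-fold for 524 (3.36%) and 212 (1.36%). All 7 HDM15wk libraries lay above every saline library for 2297 genes (14.7%) and below for 2157 (13.8%). The median log2 fold change over all tested genes was 0.01, so a list whose median departs from 0 departs from the bulk of genes by about as much. These counts are from a fit over all 43 libraries. In a fit of the 14 libraries alone with the number-range term, 6574 of 14618 tested genes were called. Of the 9235 genes called in the full set, 8831 were tested there and 6440 were still called. Without HDM15wk replicate 1, 9022 genes (57.9%) were called, 30.2% higher and 27.7% lower, of which 8352 were among the 9235 of the full set. After a correction of the counts for GC content and transcript length, 4447 genes rose (28.5%) and 4931 fell (31.6%), so that the balance turned, and 7690 of the 9235 genes and 2958 of the 2991 changed at least 2-fold were still called. Within number range 1, 1045 genes rose (7.01%) and 938 fell (6.29%), and within number range 2, 3577 rose (23.6%) and 3377 fell (22.2%), which together is 13.3% of genes in range 1 and 45.8% in range 2. Saa3, Arg1, Il13 and Ncr1, described below, had log2 fold changes of 8.88, 6.38, 3.26 and -3.35 in range 1 and 6.58, 5.46, 3.76 and -3.67 in range 2. Of these, Il13 did not pass in the fit of range 1 alone (adjusted p = 0.05004). The estimates of both ranges had the same sign for 9162 of the 9235 called genes. These genes were called from the libraries of both ranges together, which favours the same sign. The change differed between the ranges for 0 genes by edgeR (0.0%, with 542 at an unadjusted p under 0.05) and 0 by limma-voom, with 476. With so few libraries of each group in a range, this does not show that the ranges agree.

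**Figure D2:**
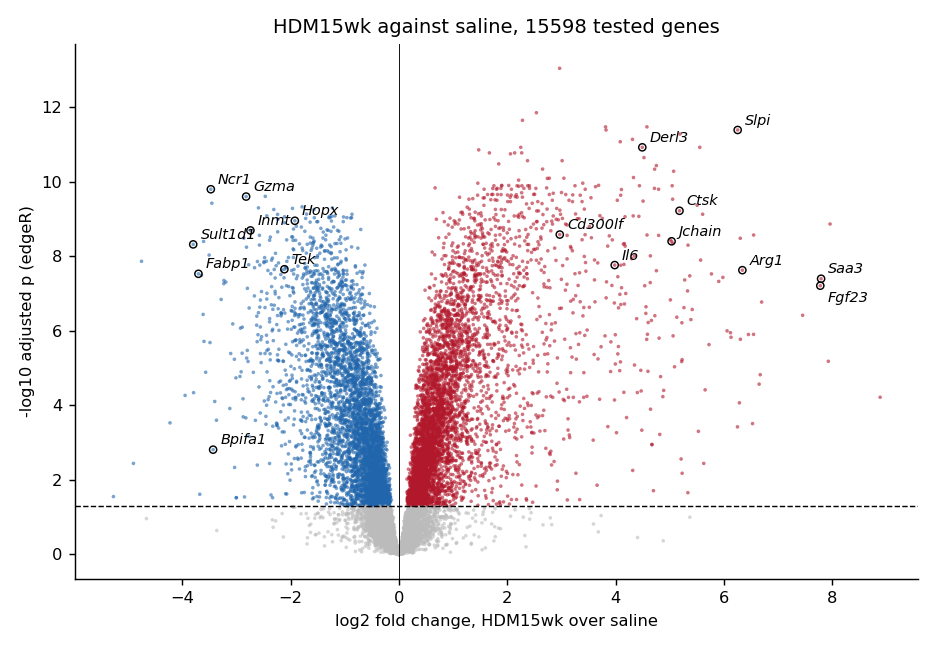
Each point is 1 of the 15598 tested genes, with the log2 fold change of HDM15wk over saline on the horizontal axis and -log10 of the adjusted p on the vertical axis. The horizontal line marks an adjusted p of 0.05 and the named genes include Saa3, Arg1, Ncr1 and Inmt, whose values are in the text.

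The lung transcriptome was also more concentrated and more varied after HDM. The 100 most abundant genes held 28.9% ± 4.15 of counts in HDM15wk and 22% ± 1.25 in saline (SD, n = 7 each), and every HDM15wk library lay above every saline library (two-sided exact permutation test, p = 0.000583, the smallest that 7 against 7 libraries allow). Without replicate 1 the HDM15wk mean was 27.4% ± 1.39 (n = 6; exact permutation p = 0.000583, the smallest that 1716 splits allow). Genes that rose at least 2-fold held a median of 22.8% of counts in HDM15wk libraries and 8.36% in saline libraries. Genes that fell at least 2-fold held 4.28% in HDM15wk and 13.9% in saline. Both sets were picked by their change in these same libraries, so the direction of these shares was set by the choice and only their size is described. The chitinase-like gene Chil3, a product of alternatively activated and alveolar macrophages (chromosome 3, 106147554 to 106167564, GRCm38), showed the largest gain in mean CPM among called genes that have a name, with 11676 ± 3775 CPM in HDM15wk and 714 ± 658 CPM in saline. It was followed by Scd1, the stearoyl-CoA desaturase of lipid synthesis, at 9873 and 2521 CPM in HDM15wk and saline. The surfactant gene Sftpc rose by 0.78 ± 0.18 on the log2 scale, and did not pass with the GC and length correction (0.19, adjusted p = 0.114) or within number range 1 (adjusted p = 0.182). The largest loss was that of Scgb1a1, the club cell secretoglobin, with 5187 ± 1955 CPM in HDM15wk and 16118 ± 3735 CPM in saline, followed by the beta globin gene Hbb-b1 and by Epas1, the gene of HIF-2 alpha, at 1165 and 2953 CPM.

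Gene lists are described below by how many of their tested members passed in each direction, to be read against 31.2% higher and 28.1% lower over all tested genes. For each list described below that had more members in one direction, that direction also held more of them without HDM15wk replicate 1 and with the GC and length correction.

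Sensors of microbes and damage mostly rose. Among 32 pathogen recognition genes 21 rose and 6 fell, with a median log2 fold change of 0.86. Clec7a, the beta-glucan receptor dectin-1, rose by 2.73 ± 0.26 (adjusted p = 1.45e-10), and Clec4n, the receptor dectin-2, which binds mite glycans, by 2.4 ± 0.25. The scavenger receptor gene Msr1 rose by 3.02, Cd14, a co-receptor for endotoxin, by 2.78 and Tlr2, a receptor for lipopeptides, by 1.32. Clec1a, a lectin gene of endothelium, fell by 2.04 ± 0.25. Il33 had the lowest, median and highest values of 117, 579 and 869 CPM in HDM15wk libraries, against 60.2, 70.4 and 133 CPM in saline libraries. HDM15wk replicate 1 was the lowest and lay within the saline range, while the other 6 libraries, from 556 CPM up, lay above it. Il33 rose by 3.0 ± 0.39 (adjusted p = 4.12e-08), and by 3.18 without that library. Its receptor gene Il1rl1 rose by 1.57 ± 0.27. Tslp, another alarmin gene, moved the other way and fell by 1.11 ± 0.26, with 2.46 ± 0.891 CPM in HDM15wk and 4.95 ± 0.885 CPM in saline. Crlf2, a subunit of the TSLP receptor, rose by 1.96. Within number range 1, Il1rl1 and Tslp did not pass (adjusted p = 0.0668 and 0.0925).

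Of the interleukin-1 family, 12 of 16 genes rose and 1 fell, with a median of 0.70. Il1rn, the IL-1 receptor antagonist, had 67.2, 107 and 219 CPM in HDM15wk libraries, against 5.52, 9.47 and 12.4 CPM in saline libraries, and its groups did not overlap. Il1rn rose by 4.09 ± 0.5 and the decoy receptor gene Il1r2 by 2.78 ± 0.41, both inhibitors of IL-1, while the cytokine gene Il1a rose by 2.26 ± 0.37. The fall was in Il18r1, a subunit of the IL-18 receptor, by 0.83. Among 18 type 2 cytokine, receptor and signalling genes 13 rose and 2 fell, with a median of 0.91. Il13, the cytokine of mucus and alternative activation, had 0.819, 1.63 and 3.1 CPM in HDM15wk libraries, against 0, 0 and 0.40 CPM in saline libraries, low values without overlap between the groups, and rose by 3.91 ± 0.71. Its decoy receptor Il13ra2 rose by 4.59 ± 0.72 and the shared receptor chain Il4ra by 0.86 ± 0.15. Within number range 1, Il13, Il13ra2 and Il4ra did not pass (adjusted p = 0.05004, 0.0769 and 0.132). Stat6, the factor these receptors act through, had a log2 fold change of 0.046 ± 0.083 (adjusted p = 0.648), and Gata3, the factor of type 2 lymphocytes, one of -0.32 ± 0.2 (adjusted p = 0.155). Ifng, the type 1 cytokine gene, had -0.17 ± 0.63 (adjusted p = 0.837) at 0.297 and 0.281 CPM in HDM15wk and saline.

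Genes of the IL-6 family and its STAT3 pathway rose in 9 of 16 and fell in 3, with a median of 0.69. The falls were in the receptor genes Il6ra, Il6st and Lifr. Il6 itself had 1.25, 4.13 and 11.6 CPM in HDM15wk libraries, against 0.133, 0.337 and 0.655 CPM in saline libraries, and rose by 3.98 ± 0.5. Oncostatin M (Osm), a cytokine of the same family, rose by 2.62 ± 0.3, the feedback inhibitor Socs3 by 2.07 ± 0.24 and the kinase gene Pim1 by 1.89 ± 0.19, while Lifr, the receptor of leukaemia inhibitory factor, fell by 1.5 ± 0.19. Colony-stimulating factors and the IL-17 axis rose in 9 of 16 and fell in 2. Csf2, the gene of GM-CSF, rose by 1.26 ± 0.22 and its receptor chains Csf2rb and Csf2ra by 2.85 ± 0.3 and 1.55 ± 0.2. Il17a had 24 counts over 5 of the 7 HDM15wk libraries and 0 in all 7 saline libraries, which is at least 8.59-fold higher against a floor of 3 counts over the saline group. In the TNF superfamily 21 of 28 rose and 5 fell, with a median of 0.79. Tnfrsf9, the costimulatory receptor 4-1BB, had 35.6, 48.5 and 75.6 CPM in HDM15wk libraries, against 0.539, 1.22 and 3.12 CPM in saline libraries, without overlap, and rose by 4.75 ± 0.43, and Tnf rose by 2.16 ± 0.3. Tnfsf10, the death ligand TRAIL, fell by 1.59 ± 0.23.

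Chemokine genes, which direct leukocytes, rose in 14 of 17 for the CC family and in 10 of 16 for the CXC, XC and CX3C families, with medians of 2.69 and 0.96, and 1 fell in each. Ccl11, the eosinophil attractant eotaxin, had 24.1, 57.6 and 84.1 CPM in HDM15wk libraries, against 1.48, 2.16 and 7.67 CPM in saline libraries, without overlap, and rose by 3.88 ± 0.44. The monocyte attractants Ccl2 and Ccl8 rose by 3.75 ± 0.4 and 4.72 ± 0.43, and the macrophage chemokines Ccl6 and Ccl9 by 3.38 ± 0.35 and 2.8 ± 0.31. The neutrophil attractants Cxcl1 and Cxcl5 rose by 3.61 ± 0.47 and 4.72 ± 0.69. Cxcr1, a receptor for such chemokines, had 11.2, 38.8 and 57.4 CPM in HDM15wk libraries, against 0.27, 0.435 and 3.12 CPM in saline libraries, again without overlap, and rose by 5.27 ± 0.68. Ppbp, a platelet chemokine, fell by 3.19 ± 0.42, with 2.7 ± 1.13 CPM in HDM15wk and 23.4 ± 7.0 CPM in saline, and the scavenging receptor Ackr4 fell by 2.28 ± 0.31. Chemokine receptors as a list rose in 10 of 23 and fell in 3, which were Ccr2, Ackr2 and Ackr4. The receptors Ccr7 and Cx3cr1 had values of -0.3 and -0.32 that did not pass. Ccr7 passed, at -0.37, without HDM15wk replicate 7 or saline replicate 2, and at -0.32 without saline replicate 5. It also passed at -0.58 with the GC and length correction (adjusted p = 0.000793), at -0.30 by DESeq2 and at -0.34 with upper-quartile size factors. Cx3cr1 passed, at -0.42, without saline replicate 3.

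Acute phase proteins, which the liver secretes in inflammation and which epithelium and macrophages can also make, rose in 18 of 21 and fell in 0, with a median of 2.78, the highest of any cytokine or defence list described here. Saa3, a serum amyloid A made outside the liver (chromosome 7, 46711998 to 46719615), had 153, 377 and 607 CPM in HDM15wk libraries, against 0.522, 1.0 and 4.49 CPM in saline libraries. The lowest HDM15wk library was far above the highest saline library, and Saa3 rose by 7.79 ± 1.0 (adjusted p = 3.97e-08). Lcn2, a siderophore-binding lipocalin, had 1682, 2050.2 and 3419 CPM in HDM15wk libraries, against 52.2, 77.5 and 152 CPM in saline libraries, and rose by 4.72 ± 0.46. The fibrinogen alpha chain gene Fga, a liver product, had 9.61, 19.7 and 27.1 CPM in HDM15wk libraries, against 0, 0.277 and 2.7 CPM in saline libraries, and rose by 5.33 ± 0.72. Itih4, an inter-alpha-trypsin inhibitor, rose by 4.33 ± 0.4 and Lrg1, a secreted glycoprotein, by 4.32 ± 0.46, each without overlap between the groups. Haptoglobin (Hp), at 906 and 639.9 CPM in HDM15wk and saline, did not pass (0.47 ± 0.24, adjusted p = 0.0847), nor did haemopexin (Hpx, -0.013 ± 0.28). Hp passed without HDM15wk replicate 6 (0.58) or saline replicate 3 (0.60), and without the number-range term (0.50, adjusted p = 0.0498). Complement genes rose in 15 of 26 and fell in 3, with a median of 0.81, among them C3, the central component, by 1.81 ± 0.18 and the C1q chains C1qa, C1qb and C1qc by 2.18, 2.28 and 2.14.

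The promoters of 5 of these inflammatory genes are shown because they rose together and their proximal sequence can be read beside the values. Each runs 5′ to 3′ on the gene's own strand from 250 bases before to 50 bases after the start in RefSeq's annotation of GRCm38.p6, with matches to the motifs searched in capitals. The windows are Saa3 (chr7:46715627-46715926, minus strand), Fga (chr3:83025903-83026202, plus strand), Il6 (chr5:30012864-30013163, plus strand), Cxcl1 (chr5:90890995-90891294, plus strand) and Retnla (chr16:48842359-48842658, plus strand), the last the gene of a resistin-like protein of alternatively activated macrophages described below.
Saa3: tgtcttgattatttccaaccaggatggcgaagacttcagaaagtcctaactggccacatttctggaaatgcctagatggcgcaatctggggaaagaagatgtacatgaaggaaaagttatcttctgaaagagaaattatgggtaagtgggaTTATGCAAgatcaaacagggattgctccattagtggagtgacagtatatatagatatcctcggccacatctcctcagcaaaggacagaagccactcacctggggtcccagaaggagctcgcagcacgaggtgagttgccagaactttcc
Fga: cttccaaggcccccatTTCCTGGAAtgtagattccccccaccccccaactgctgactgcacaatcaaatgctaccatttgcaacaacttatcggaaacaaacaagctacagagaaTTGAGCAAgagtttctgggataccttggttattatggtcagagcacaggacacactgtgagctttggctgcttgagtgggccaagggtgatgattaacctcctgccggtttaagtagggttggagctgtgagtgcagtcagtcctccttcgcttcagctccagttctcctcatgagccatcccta
Il6: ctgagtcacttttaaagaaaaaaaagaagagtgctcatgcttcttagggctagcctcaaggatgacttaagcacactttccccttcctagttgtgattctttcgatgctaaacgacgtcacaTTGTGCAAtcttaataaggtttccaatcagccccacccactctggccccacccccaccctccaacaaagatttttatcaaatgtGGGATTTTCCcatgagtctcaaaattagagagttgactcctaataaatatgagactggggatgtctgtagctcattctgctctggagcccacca
Cxcl1: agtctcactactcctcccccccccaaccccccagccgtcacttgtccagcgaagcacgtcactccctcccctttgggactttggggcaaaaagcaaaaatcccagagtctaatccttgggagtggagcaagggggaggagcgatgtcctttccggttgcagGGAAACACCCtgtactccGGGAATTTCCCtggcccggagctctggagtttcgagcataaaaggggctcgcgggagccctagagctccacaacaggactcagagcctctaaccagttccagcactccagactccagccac
Retnla: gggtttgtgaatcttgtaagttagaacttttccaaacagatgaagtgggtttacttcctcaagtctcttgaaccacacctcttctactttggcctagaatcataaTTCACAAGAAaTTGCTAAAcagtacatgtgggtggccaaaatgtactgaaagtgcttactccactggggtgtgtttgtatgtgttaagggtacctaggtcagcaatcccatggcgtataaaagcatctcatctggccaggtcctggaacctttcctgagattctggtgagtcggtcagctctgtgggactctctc
Both strands were searched for TTGCNNAA (C/EBP), TTCNNNGAA (STAT3), TTC and GAA with 4 bases between them (STAT6) and GGG and TTCC with 3 bases between them (the kappaB site of NF-kB). The letters TGACGTGG (XBP1) and TTTGAA (CHR) were also searched and were in none of the 5 windows. The C/EBP letters begin at base 152 in Saa3, 116 in Fga, 123 in Il6 and 117 in Retnla, the STAT3 letters at base 17 in Fga, the STAT6 letters at base 106 in Retnla, and the kappaB letters at base 207 in Il6 and at bases 162, 180 and 181 in Cxcl1, where the last 2 overlap. Of 15509 promoters of tested genes, 9.17% hold the C/EBP letters, 7.07% the STAT3 letters, 5.53% the STAT6 letters and 6.09% the kappaB letters. The C/EBP letters were in 10 of 17 promoters of acute phase genes (58.8%) and in 0 of 12 of CC chemokine genes, and in 15.4% of the 493 promoters of genes that rose at least 4-fold and 12.5% of the 184 of genes that fell at least 4-fold. The kappaB letters were in 4 of 13 promoters of the CXC, XC and CX3C list (30.8%), where the STAT6 letters were in 0. The STAT6 letters were in 6 of 21 promoters of the alternative activation list (28.6%), where the kappaB letters were in 1. The CHR letters were also in 6 of these 21, and in 12.7% of all promoters. The 21 promoters belong to 16 genes, as a gene can have more than 1. The C/EBP letters were in 6 of 21 promoters of plasma cell genes and the kappaB letters in 3 of 17 of acute phase genes. Other pairs of list and motif were searched and are not given. Genes that rose at least 4-fold held the kappaB letters in 9.74% and the STAT6 letters in 7.1%, and genes that fell at least 4-fold in 5.43% and 3.8%. Base composition differs between these sets, with a mean GC content of 50.3% for acute phase genes, 54.2% for the 4-fold risers and 59.8% for all promoters, and its part in the shares was not tested.

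**Figure D3:**
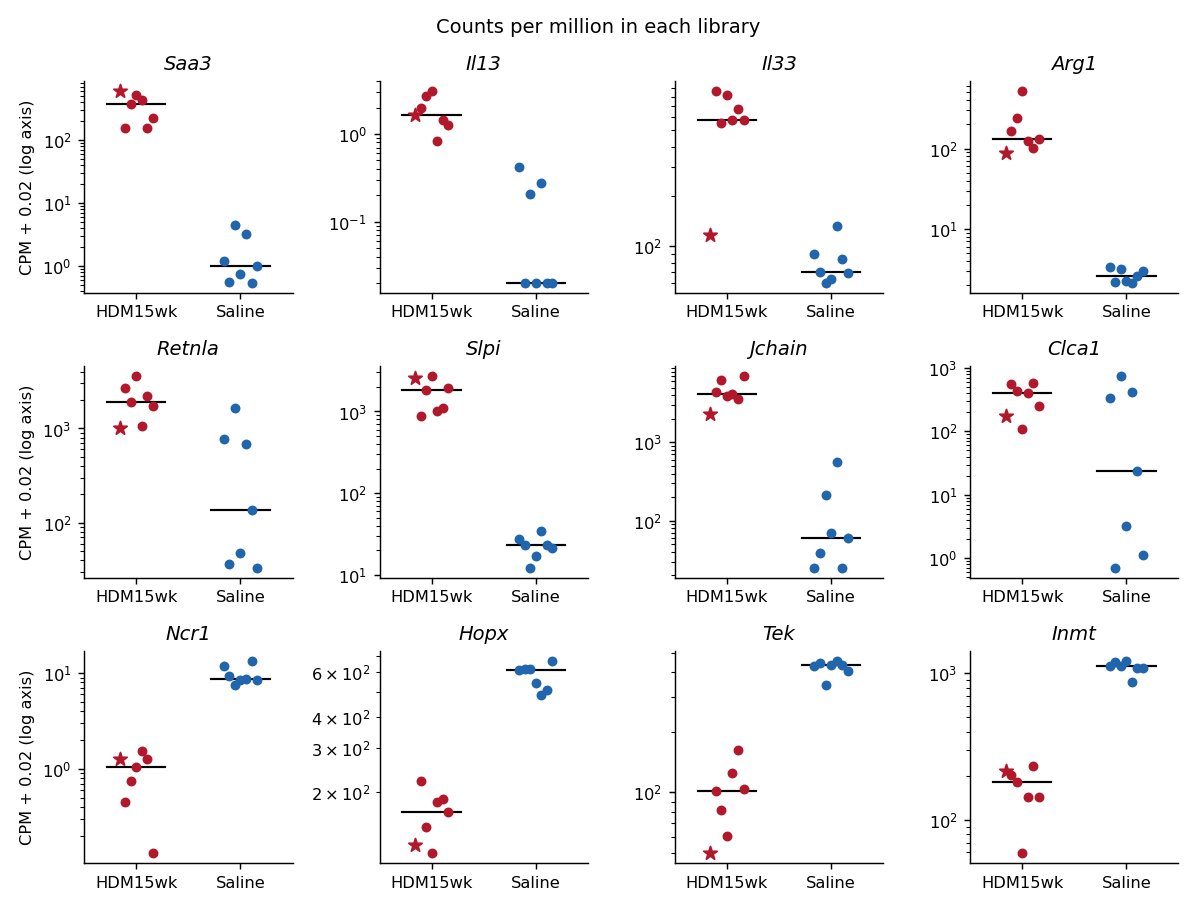
Each panel is 1 gene, with CPM on a log axis (0.02 added so that 0 can be drawn), HDM15wk libraries on the left, saline libraries on the right, and a bar at each median. The 7 HDM15wk values lie above all saline values for Saa3, Il13, Arg1 and Jchain and below them for Ncr1, Hopx, Tek and Inmt, and HDM15wk replicate 1 is drawn as a star.

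Alternative activation of macrophages rose in 20 of 23 genes and fell in 1, with a median of 1.71. Arg1, the arginase that takes arginine from nitric oxide synthesis, had 88.3, 133 and 527 CPM in HDM15wk libraries, against 2.11, 2.61 and 3.33 CPM in saline libraries, and rose by 6.34 ± 0.79. Its groups did not overlap, although the HDM15wk libraries spread widely. Retnla had 1007, 1917 and 3622 CPM in HDM15wk libraries, against 33, 138 and 1634 CPM in saline libraries. The groups overlapped, because 3 saline libraries lay between 692 and 1634 CPM and the other 4 at or under 138 CPM. Retnla rose by 2.2 ± 0.7 (adjusted p = 0.00725), but did not pass in a fit of the 14 libraries alone with the number-range term (2.15, adjusted p = 0.0619) or within either range. The transcription factor genes Irf4 and Egr2 rose by 2.23 ± 0.25 and 2.36 ± 0.27. The fall was in Flt1, a VEGF receptor that is also an endothelial gene, by 1.37. Of 20 arginine and polyamine genes 15 rose and 0 fell, among them Slc7a2, an arginine transporter, by 2.18 ± 0.28 and Srm, spermidine synthase, by 1.63 ± 0.21.

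Macrophage genes of other kinds rose as well. Markers of monocyte-derived and lipid-handling macrophages rose in 21 of 32 and fell in 3, with a median of 1.68. The falls were in the chemokine receptor gene Ccr2, in Cd36 and in Lyve1, described below. Spp1, the gene of osteopontin, had 1331, 2033 and 5454 CPM in HDM15wk libraries, against 38.4, 103 and 123 CPM in saline libraries, without overlap, and rose by 5.34 ± 0.62, and Mmp12, a macrophage elastase, rose by 5.77 ± 0.73. The lipid-binding gene Fabp5 rose by 3.04 ± 0.28 and Ms4a7, a marker of interstitial macrophages, by 2.97 ± 0.2, while Lyve1, which marks a perivascular subset and lymphatic vessels, fell by 1.94 ± 0.27. Csf1r, the receptor that macrophages depend on, had 0.0086 ± 0.11 and did not pass (adjusted p = 0.951). Alveolar macrophage genes rose in 15 of 22 and fell in 4, with a median of 1.48: Fabp4 rose by 2.01 ± 0.45 and the integrin gene Itgax by 2.83 ± 0.29, whereas Fabp1 fell by 3.7 ± 0.48 and Siglecf, a lectin of alveolar macrophages and eosinophils, did not pass (-0.042 ± 0.28). Lysosomal proteases rose in 11 of 15 and fell in 0, with a median of 1.68. Ctsk, a collagen-degrading cathepsin, had 557, 657 and 1021 CPM in HDM15wk libraries, against 10.4, 16.9 and 38.8 CPM in saline libraries, without overlap, and rose by 5.18 ± 0.54. Ctsd, the main aspartic protease of lysosomes, rose by 3.44 ± 0.34.

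Granulocyte genes rose in part. Neutrophil genes rose in 19 of 26 and fell in 1, with a median of 1.08, including Cd177 at 4.54 ± 0.6 and Hdc, the histamine-forming enzyme, at 1.09 ± 0.21. The formyl peptide receptor Fpr1 did not pass (-0.2 ± 0.33). Eosinophil genes rose in 10 of 15 and fell in 2. Prg2, the major basic protein, had 4.13, 11.2 and 17.9 CPM in HDM15wk libraries, against 0.27, 0.463 and 0.647 CPM in saline libraries, without overlap, and rose by 4.58 ± 0.37, and Ear6, an eosinophil ribonuclease with close copies, rose by 6.3 ± 1.01, while Il5ra, the IL-5 receptor, did not pass (0.27 ± 0.29). Among 15 mast cell and basophil genes 6 rose and 3 fell. The mucosal mast cell proteases Mcpt1 and Mcpt2, of a family with close copies, rose by 6.06 ± 0.94 and 6.45 ± 1.01, but Cma1, a connective tissue mast cell chymase, did not pass (-0.14 ± 0.49), except without HDM15wk replicate 4 (-1.01, adjusted p = 0.0491). Gata2, a factor of mast cells and endothelium, fell by 1.72 ± 0.22.

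Lymphocyte genes moved in opposite directions. NK and cytotoxic genes fell in 27 of 33 and rose in 1, with a median of -1.48. Ncr1, the NK receptor NKp46 (chromosome 7, 4337715 to 4345184), had 0.112, 1.03 and 1.52 CPM in HDM15wk libraries, against 7.58, 8.68 and 13.4 CPM in saline libraries, without overlap, and fell by 3.47 ± 0.34 on the log2 scale (adjusted p = 1.58e-10). The granzyme genes Gzma and Gzmb fell by 2.82 ± 0.28 and 2.58 and S1pr5, which lets NK cells leave tissue, by 2.81. T cell genes rose in 17 of 38 and fell in 11, with a median of 0.16, shares not far from those over all tested genes. The checkpoint receptor Pdcd1 (PD-1) had 2.4, 6.17 and 12.1 CPM in HDM15wk libraries, against 0.135, 0.463 and 1.22 CPM in saline libraries, without overlap, and rose by 3.69 ± 0.35, and Foxp3, the factor of regulatory T cells, rose by 1.82 ± 0.22. Plasma cell genes rose in 16 of 17 and fell in 0, with a median of 2.21. Jchain, which links the units of polymeric IgA and IgM, had 2309.9, 4128 and 7069.7 CPM in HDM15wk libraries, against 24.8, 60.2 and 563 CPM in saline libraries, without overlap, and rose by 5.03 ± 0.58. Of 23 B cell genes 9 rose and 0 fell. ER protein folding genes, which plasma cells and other secretory cells use, rose in 30 of 35 and fell in 0, with a median of 1.02, including Sdf2l1 at 2.38 ± 0.23 and Xbp1, a factor of the unfolded protein response, at 1.71 ± 0.17.

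Antigen presentation and interferon genes did not move together. MHC class II presentation genes rose in 16 of 17 and fell in 0, with a median of 0.86, among them the invariant chain gene Cd74 at 1.42 ± 0.19 and the costimulatory ligand gene Cd80 at 2.06 ± 0.21. Interferon-gamma targets fell in 16 of 29 and rose in 4, with a median of -0.43. The guanylate-binding protein gene Gbp2 had 18.6, 42.5 and 60.1 CPM in HDM15wk libraries, against 70.4, 103 and 149 CPM in saline libraries, and fell by 1.4 ± 0.24, and Gbp7 and the GTPase gene Irgm2 fell by 1.29 ± 0.24 and 1.3. Type I interferon response genes fell in 19 of 36 and rose in 6, with a median of -0.42. Ifit2, an antiviral protein gene, fell by 1.75 ± 0.25, while Oas1a and Zbp1, sensors of double-stranded nucleic acid, rose by 1.78 and 1.69. Dendritic cell genes rose in 16 of 25 and fell in 3, with Fscn1, an actin-bundling gene of mature dendritic cells, at 2.64 ± 0.27 and Clec9a, a marker of the cross-presenting subset, at -0.28 ± 0.25, which did not pass.

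**Figure D4:**
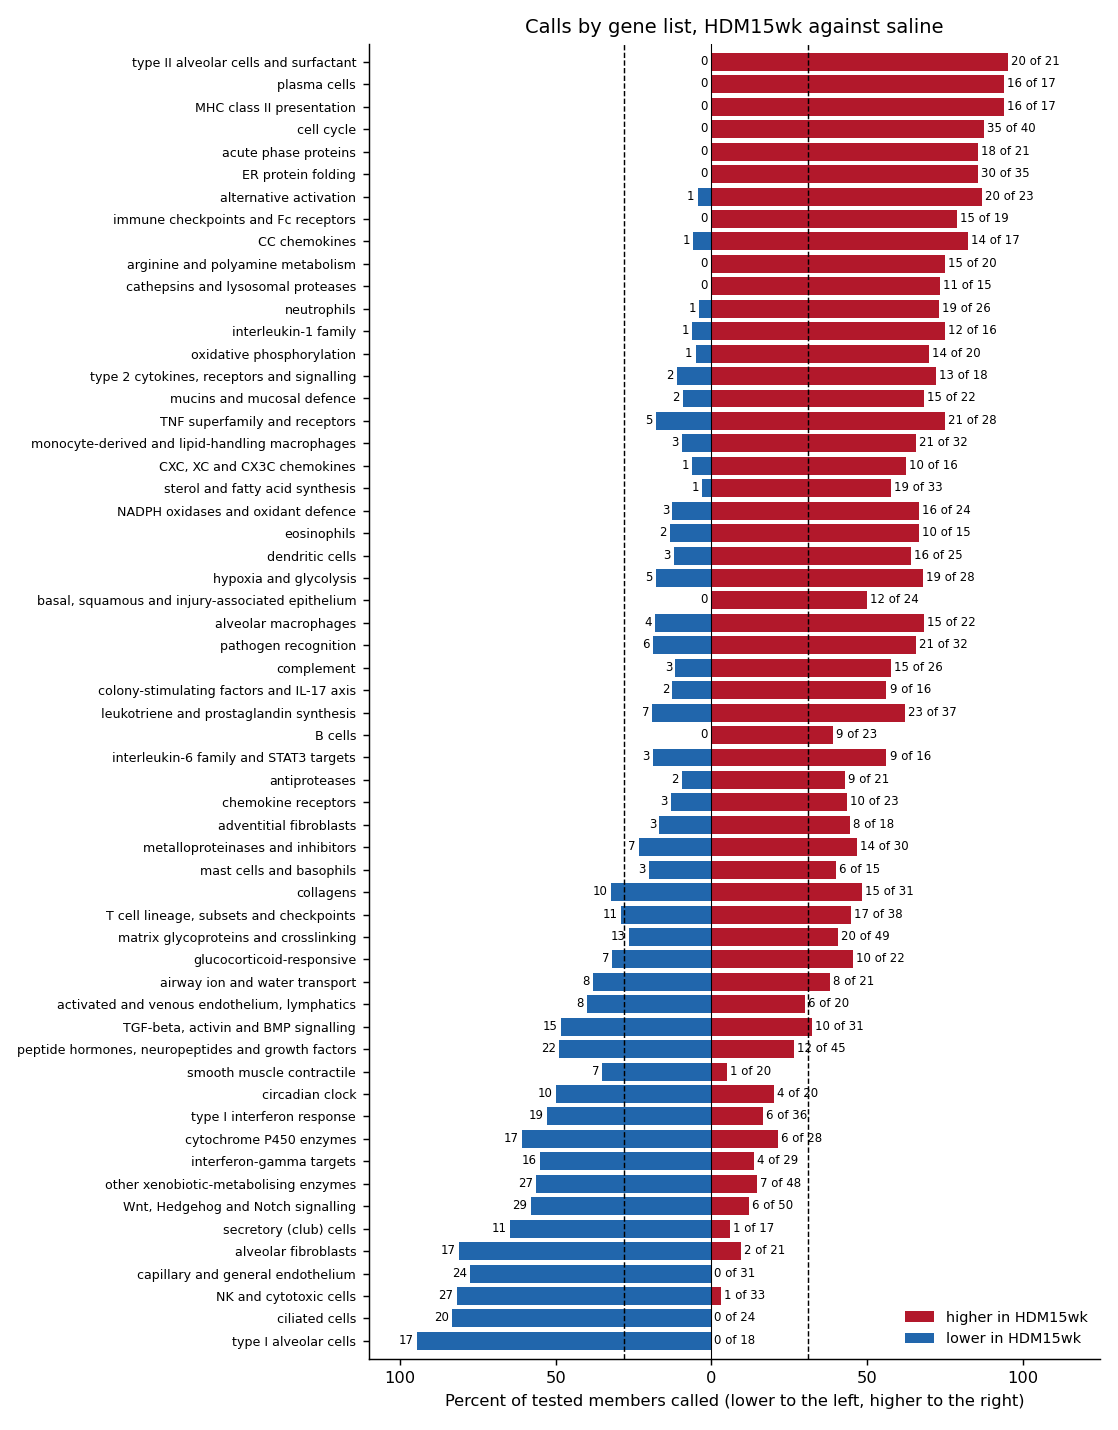
For each gene list drawn, bars give the percent of tested members called higher (right) and lower (left) in HDM15wk than in saline, with the counts beside them. Lists with few tested members, those of other tissues, and the mitochondrially encoded and immediate early lists are not drawn. The dashed lines mark the percent over all tested genes, 31.2% higher and 28.1% lower, and the lists run from type II alveolar cells, with 20 of 21 higher, to type I alveolar cells, with 17 of 18 lower.

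In the airway epithelium, genes of club cells and cilia fell while mucosal defence genes rose. Club cell genes fell in 11 of 17 and rose in 1, with a median of -1.47. Cyp2f2, a club cell cytochrome P450, had 143, 358 and 589.9 CPM in HDM15wk libraries, against 1576, 1960.1 and 2708 CPM in saline libraries, without overlap, and fell by 2.45 ± 0.3, and Aldh1a1, a retinal dehydrogenase, fell by 1.95 ± 0.24. Ciliated cell genes fell in 20 of 24 and rose in 0, with a median of -1.05, such as Cfap44, a gene of the ciliary axoneme, by 1.81, and without HDM15wk replicate 1, which was high for some of them, 23 fell. Foxj1, the master factor of motile cilia, had -0.5 ± 0.23 and did not pass (adjusted p = 0.0616), but fell by 0.82 without that library (adjusted p = 0.000483), and by 0.59 and 0.56 without saline replicate 1 or 6, and by 0.86 with the GC and length correction. Foxj1 also passed by limma-voom (-0.62, adjusted p = 0.0169), without the number-range term (-0.54) and with upper-quartile size factors (-0.56). Mucin and mucosal defence genes rose in 15 of 22 and fell in 2, with a median of 1.43. Pigr, which carries IgA and IgM across epithelium, had 624, 1101 and 2009 CPM in HDM15wk libraries, against 63.5, 80.3 and 243 CPM in saline libraries, without overlap, and rose by 3.25 ± 0.42. Muc1, a membrane mucin, rose by 1.9 ± 0.23, and Bpifa1, an airway surface protein, fell by 3.43 ± 0.91, though not by limma-voom (adjusted p = 0.0554). Muc5ac, a secreted goblet cell mucin, had 5.27, 15.5 and 26.1 CPM in HDM15wk libraries, against 1.7, 5.83 and 30.4 CPM in saline libraries, with overlapping groups, and did not pass (0.73 ± 0.5, adjusted p = 0.208) unless saline replicate 3 was left out (1.26, adjusted p = 0.0256). Clca1, another goblet cell gene, had 109, 399 and 573 CPM in HDM15wk libraries, against 0.674, 24.1 and 754 CPM in saline libraries, and 3 saline libraries lay between 332 and 754 CPM, within or above the HDM15wk range, while 4 were at or under 24.1 CPM. Clca1 did not pass by edgeR (0.73 ± 0.81, adjusted p = 0.446) and passed by limma-voom (3.75, adjusted p = 0.00183).

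Ion transport genes of the airway rose in 8 of 21 and fell in 8, shares near those over all tested genes. Slc26a4, the anion exchanger pendrin, had 358, 499 and 820.4 CPM in HDM15wk libraries, against 8.76, 18.9 and 63.9 CPM in saline libraries, without overlap, and rose by 4.51 ± 0.46, and the glucose transporter gene Slc5a1 rose by 3.81 ± 0.3. The sodium channel subunits Scnn1b and Scnn1g fell by 1.18 ± 0.14 and 1.44, while Cftr, the chloride channel, did not pass (0.037 ± 0.2). Oxidant-producing and oxidant defence genes rose in 16 of 24 and fell in 3, with a median of 1.01. Duox1, an airway hydrogen peroxide generator, had 3.04, 6.02 and 76 CPM in HDM15wk libraries, against 0, 0.168 and 0.374 CPM in saline libraries, with 1 HDM15wk library far above the other 6, and rose by 6.55 ± 1.02, and Slc7a11, the cystine importer, rose by 4.58 ± 0.51. Among antiproteases 9 of 21 rose and 2 fell. Slpi, the secretory leukocyte protease inhibitor, had 879.7, 1833 and 2733 CPM in HDM15wk libraries, against 12.1, 22.9 and 34.2 CPM in saline libraries, without overlap, and rose by 6.25 ± 0.5. Basal, squamous and injury-associated genes rose in 12 of 24 and fell in 0, although 6 were lower with the GC and length correction. The rises included the tight junction gene Cldn4 at 1.79 ± 0.33, which did not pass within number range 1 (2.06, adjusted p = 0.151) or range 2 (0.88, adjusted p = 0.107), and the urokinase receptor gene Plaur at 2.0 ± 0.23, while the keratin genes Krt7 and Krt19 did not pass (-0.32 and -0.29). HDM15wk replicate 1 was high for both, and without it they fell by 0.54 and 0.57 (adjusted p = 0.000408 and 0.00203), and with the GC and length correction by 0.46 and 0.73. Both also passed within number range 2 (-0.52 and -0.47), and Krt7 passed by limma-voom (-0.37, adjusted p = 0.0336) and with upper-quartile size factors (-0.38).

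In the alveoli the epithelial types moved apart. Type I cell genes, of the thin cells of gas exchange, fell in 17 of 18 and rose in 0, with a median of -1.43. Hopx, a type I transcription cofactor, had 114, 167 and 222 CPM in HDM15wk libraries, against 487, 613 and 666 CPM in saline libraries, without overlap, and fell by 1.92 ± 0.21. Vegfa, which type I cells give to capillaries, had 167, 325 and 448 CPM in HDM15wk libraries, against 821, 893 and 984 CPM in saline libraries, again without overlap, and fell by 1.42 ± 0.17. Pdpn, a type I gene that lymphatic cells share, did not pass (0.22 ± 0.13). It passed as higher within number range 2 (0.33, adjusted p = 0.00752) and in the 14 libraries alone without the number-range term (0.31, adjusted p = 0.0267). Type II cell and surfactant genes rose in 20 of 21 and fell in 0, with a median of 1.01. Sftpd, a surfactant collectin, had 1929, 2289.7 and 3888 CPM in HDM15wk libraries, against 484, 661 and 796 CPM in saline libraries, without overlap, and rose by 1.94 ± 0.22, and Sftpa1 rose by 1.05 ± 0.14. Sterol and fatty acid synthesis genes rose in 19 of 33 and fell in 1, with a median of 0.41. Fasn, fatty acid synthase, rose by 2.35 ± 0.3, Scd1 by 2.15 ± 0.22 and Me1, which supplies NADPH, by 1.78 ± 0.21. Acly, ATP citrate lyase, did not pass (0.29 ± 0.14). Acly passed without HDM15wk replicate 3 (0.33) or saline replicate 6 (0.33), and without the number-range term (0.30, adjusted p = 0.0499). It also passed in the 14 libraries alone without that term (0.31, adjusted p = 0.037).

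More enzymes of xenobiotic metabolism fell than rose, whereas more genes of energy and prostaglandin metabolism rose than fell. Cytochrome P450 genes fell in 17 of 28 and rose in 6, with a median of -0.65, and other xenobiotic-metabolising enzymes fell in 27 of 48 and rose in 7, with a median of -0.64. Cyp26b1, which degrades retinoic acid, had 3.28, 5.93 and 17.6 CPM in HDM15wk libraries, against 8.26, 51.7 and 281 CPM in saline libraries, where 1 saline library lay within the HDM15wk range, and fell by 3.37 ± 0.75 but did not pass within number range 2 (adjusted p = 0.0976), and the sulfotransferase gene Sult1d1 fell by 3.8 ± 0.44. The aldo-keto reductase gene Akr1b8 rose by 1.49 ± 0.16. Hypoxia and glycolysis genes rose in 19 of 28 and fell in 5, with a median of 0.82, including hexokinase 3 (Hk3) at 3.08 ± 0.34 and lactate dehydrogenase (Ldha) at 1.24 ± 0.16, with Epas1 and Vegfa among those that fell. Oxidative phosphorylation genes rose in 14 of 20 and fell in 1. Prostaglandin and leukotriene genes rose in 23 of 37 and fell in 7, with a median of 0.93: Ptgs1, cyclooxygenase 1, rose by 2.25 ± 0.19 and the prostacyclin receptor gene Ptgir by 2.97 ± 0.31, while Ptgs2, the inducible cyclooxygenase, did not pass (-0.28 ± 0.26).

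Matrix genes changed in both directions. Collagens rose in 15 of 31 and fell in 10, with a median of 0.47. Col15a1, a basement membrane collagen, had 56.7, 86.3 and 178 CPM in HDM15wk libraries, against 12.7, 17.9 and 22 CPM in saline libraries, without overlap, and rose by 2.67 ± 0.29, and Col24a1, a fibrillar collagen, rose by 4.64 ± 0.61. Col4a4, of the alveolar basement membrane, fell by 1.29 ± 0.17 and the transmembrane collagen gene Col23a1 by 1.25. Matrix glycoproteins and crosslinking genes rose in 20 of 49 and fell in 13, shares near those over all tested genes, with Tnc, a glycoprotein of remodelling tissue, at 2.55 ± 0.28 and Npnt, nephronectin, at -1.55 ± 0.21. Metalloproteinases and inhibitors rose in 14 of 30 and fell in 7. Mmp19 rose by 3.71 ± 0.39 and Timp3, an inhibitor bound to matrix, fell by 1.33 ± 0.15, while Mmp9, gelatinase B, did not pass (0.24 ± 0.25). Of TGF-beta, activin and BMP genes 10 of 31 rose and 15 fell. Inhba, the activin A subunit, had 19.7, 37.7 and 71 CPM in HDM15wk libraries, against 0.696, 1.02 and 1.6 CPM in saline libraries, without overlap, and rose by 5.37 ± 0.69, whereas Tgfbr3, a co-receptor, fell by 1.71 ± 0.21.

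Most genes of alveolar fibroblasts and of capillary endothelium fell, and other stromal and vascular lists were mixed. Alveolar fibroblast genes fell in 17 of 21 and rose in 2, with a median of -1.51. Inmt, a methyltransferase, had 59.1, 180.2 and 232 CPM in HDM15wk libraries, against 876, 1128 and 1217 CPM in saline libraries, without overlap, and fell by 2.74 ± 0.31, and Pdgfra, the growth factor receptor of these cells, fell by 1.59 ± 0.18. Adventitial fibroblast genes rose in 8 of 18 and fell in 3, among them the Wnt antagonist gene Sfrp1 at 2.54 ± 0.28. Smooth muscle contractile genes fell in 7 of 20 and rose in 1, and Acta2, smooth muscle actin, did not pass (0.22 ± 0.22). Capillary and general endothelial genes fell in 24 of 31 and rose in 0, with a median of -0.90. Tek, the angiopoietin receptor, had 49.5, 102 and 163 CPM in HDM15wk libraries, against 343, 435 and 456 CPM in saline libraries, without overlap, and fell by 2.11 ± 0.27. Ednrb, an endothelin receptor, fell by 2.44 ± 0.34, while Car4, a carbonic anhydrase of a capillary subset, did not pass (0.28 ± 0.29). In the list of activated, venous and lymphatic vessels 6 of 20 rose and 8 fell, with Ackr1, a venular chemokine-binding protein, at 2.73 ± 0.37. Cardiac muscle genes, which mouse lung holds in the walls of pulmonary veins, fell in 10 of 11, with Tnnt2, cardiac troponin T, at -1.47 ± 0.28, and red blood cell genes fell in 6 of 9. Hba-a2, of alpha globin, did not pass (-1.31 ± 0.97), but fell by 2.86 without HDM15wk replicate 1 (adjusted p = 0.012) and by 2.56 with the GC and length correction. Hba-a2 also passed by limma-voom (-3.49, adjusted p = 0.00363) and within number range 2 (-4.34, adjusted p = 0.0265). The sum of the near-identical globin genes Hba-a1 and Hba-a2 ranged from 414 to 3856 CPM in HDM15wk, or to 1107 CPM without replicate 1, against 2943 to 4694 CPM in saline. The levels of these red blood cell and cardiac muscle genes thus moved with the groups, and their part in the other results was not tested.

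Genes of growth and signalling moved in both directions. Cell cycle genes rose in 35 of 40 and fell in 0, with a median of 1.01, for example Cdk1, the mitotic kinase, at 1.85 ± 0.25 and Bub1b, of the spindle checkpoint, at 1.86 ± 0.23. Peptide hormones, neuropeptides and growth factors fell in 22 of 45 and rose in 12. Fgf23, a hormone of phosphate balance usually made in bone, had 6.92, 13.9 and 53.9 CPM in HDM15wk libraries, against 0, 0 and 0.281 CPM in saline libraries, without overlap, and rose by 7.78 ± 1.03. Npy, neuropeptide Y, had 6.47, 21.9 and 49.1 CPM in HDM15wk libraries, against 0, 0 and 0.842 CPM in saline libraries, and rose by 7.45 ± 1.09, and Igf1, an insulin-like growth factor that macrophages make, rose by 2.41 ± 0.23. Igfbp6, which binds such factors, fell by 2.08 ± 0.28 and Fgf1 by 1.69. Wnt, Hedgehog and Notch genes fell in 29 of 50 and rose in 6, with the ligand genes Wnt2 and Wnt7a at -1.96 and -1.42 and the Notch ligand Jag1 at -0.87. Glucocorticoid-responsive genes rose in 10 of 22 and fell in 7, with Hsd11b2, which inactivates corticosterone, at 3.02 ± 0.38 and Hsd11b1, which regenerates it, at -1.51 ± 0.18. Circadian clock genes fell in 10 of 20 and rose in 4, and no label gives the hour of collection. Immediate early genes rose in 5 of 12 and fell in 2, with Atf3 at 2.62 ± 0.3 and Dusp1 at -0.8 ± 0.21.

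HDM15wk can also be set against HDM4wk, a comparison that shares its HDM15wk libraries with the one against saline. Between the HDM groups themselves 1918 of 15598 genes (12.3%) were higher at 15 weeks and 1416 (9.08%) lower, 21.4% in all. Acute phase genes were higher than at 4 weeks in 14 of 21, neutrophil genes in 16 of 26 and ER protein folding genes in 23 of 35. Saa3 had 153, 377 and 607 CPM in HDM15wk libraries, against 15.1, 55.5 and 171 CPM in HDM4wk libraries, and was higher by 2.56 ± 0.65 (adjusted p = 0.00493). Fga had 9.61, 19.7 and 27.1 CPM in HDM15wk libraries, against 0, 0.545 and 2.13 CPM in HDM4wk libraries, a difference of 4.98 ± 0.62, and Itih4 and Clec4n were higher by 2.63 and 1.85. Smooth muscle genes were lower than at 4 weeks in 13 of 20, B cell genes in 12 of 23, NK and cytotoxic genes in 17 of 33 and alternative activation genes in 8 of 23. Gzma had 3.72, 5.15 and 6.55 CPM in HDM15wk libraries, against 6.89, 14.8 and 49.2 CPM in HDM4wk libraries, and was lower by 1.87 (adjusted p = 8.68e-06). Il13 was lower by 1.56 and the dendritic cell factor Batf3 by 1.2, although both were above saline. Cd40, a costimulatory receptor, had a log2 fold change of -0.42 against saline (adjusted p = 0.0231) and -1.04 against 4 weeks. The call against saline was lost without HDM15wk replicate 5 (-0.37, adjusted p = 0.0554) or saline replicate 5 (-0.37, adjusted p = 0.0513). It was also lost in a fit of the 14 libraries alone with the number-range term (-0.28, adjusted p = 0.0744) and within range 1 (-0.43, adjusted p = 0.212) and range 2 (-0.11, adjusted p = 0.576).

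**Figure D5:**
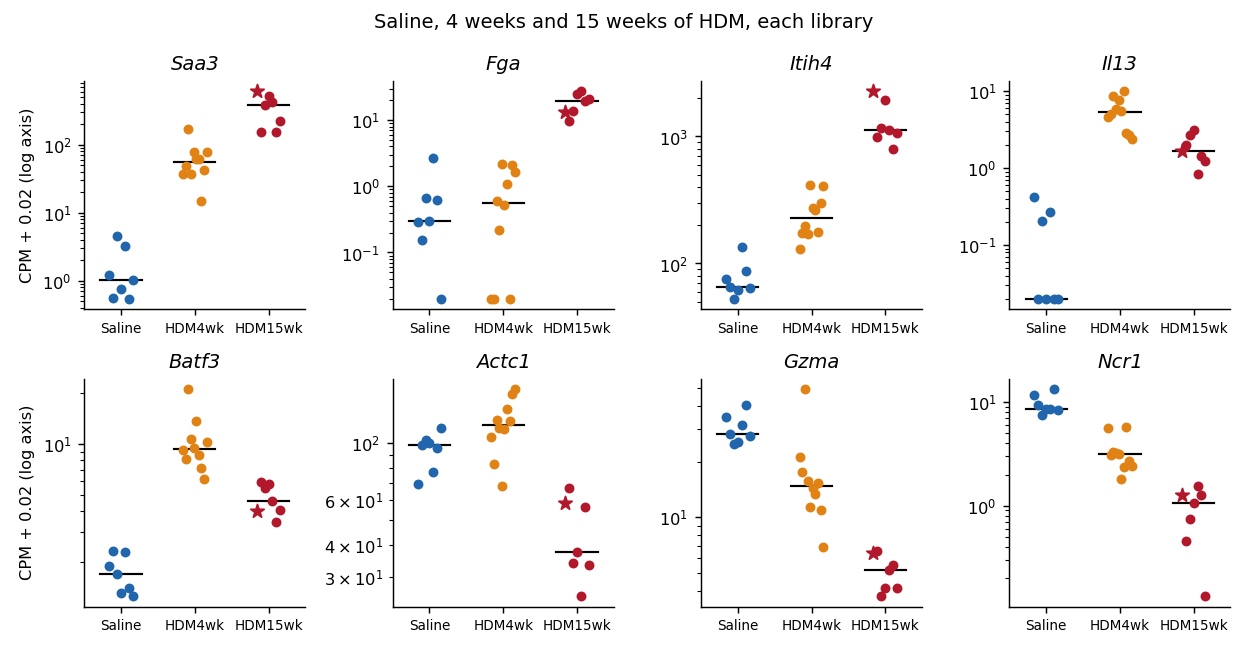
Each panel is 1 gene, with CPM per library on a log axis (0.02 added) for saline, HDM4wk and HDM15wk from left to right and a bar at each median. Saa3, Fga and Itih4 are highest in HDM15wk, Il13, Batf3 and Actc1 are lower there than in HDM4wk, and Gzma and Ncr1 are lowest in HDM15wk.

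The isotype group is another set of libraries after 15 weeks of HDM. No gene (0.0%) differed between HDM15wk and HDM15wk_Iso at an adjusted p under 0.05 by edgeR, with 932 at an unadjusted p under 0.05, and none by limma-voom (0, with 711 at an unadjusted p under 0.05). Without the number-range term 4 genes were called. Saa3 had 153, 377 and 607 CPM in HDM15wk libraries, against 299, 383 and 515 CPM in isotype libraries, and Arg1 had 88.3, 133 and 527 CPM in HDM15wk libraries, against 117, 211 and 535 CPM in isotype libraries. The ranges overlapped for both genes. A difference that misses the threshold with 4 isotype libraries does not show that the groups are alike.

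HDM15wk libraries differed among themselves more than saline libraries did. The median SD of log2 CPM over tested genes was 0.389 in HDM15wk and 0.173 in saline, and 0.235 in HDM15wk without replicate 1, and the SD was higher in HDM15wk for 85.5% of genes. HDM15wk replicate 1 was the highest or the lowest of its group for 72.6% of genes, and the other 6 libraries for 14.9% to 28.5% each. Among called genes at 2 CPM or more, the highest SDs included those of Erv3, an endogenous retrovirus gene, Clca3b, a calcium-activated channel regulator, and Dlk1, a Notch family ligand. Erv3 and Clca3b had counts in 6 of 7 HDM15wk libraries and 0 in all saline libraries, at least 64.4-fold and 62.3-fold higher against a floor of 3 counts over the saline group. Dlk1 had 0.18, 1.12 and 26.7 CPM in HDM15wk libraries, against 0, 0 and 0.133 CPM in saline libraries, and its log2 fold change was 6.67, or 5.68 without replicate 1. The lowest SDs among genes changed at least 4-fold included those of Cd300lf, an inhibitory receptor of myeloid cells, with 90.1, 95.7 and 123 CPM in HDM15wk libraries, against 11.7, 13 and 15 CPM in saline libraries, of Ptgs1 and of the leukocyte integrin gene Itgb2, which rose by 2.13 ± 0.23. These genes gave nearly the same value in each of the 7 HDM15wk libraries, far from the saline range.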

How the data were processed

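Lung RNA from 43 libraries was sequenced with a stranded mRNA kit, per the labels. The authors deposited whole-number counts per Entrez gene ID on the genome build GRCm38, per the submitters' processing notes. No source used here names the aligner or counter, so near-identical and overlapping genes are uncertain. Of 24475 gene IDs, 24375 were named from RefSeq's gene table, and the other 100 held 2.62% of counts.

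Genes were filtered with filterByExpr, scaled by TMM and tested with edgeR 4.0.16 (R 4.3.3), in a robust quasi-likelihood fit over all 43 libraries with group and number range as terms and Benjamini-Hochberg adjustment over 15598 genes. An adjusted p under 0.05 is a call, fold changes are log2 of HDM15wk over saline with standard errors, and CPM are TMM-scaled. Totals of 4909177 to 12414078 counts limit the precision for rare genes. The fit was tested on simulated data for the same comparison and 15598 genes, of which 200 were changed. It recovered 55.2%, 80.6% and 100% of changes of 1.5-fold, 2-fold and 4-fold, and the percent false was 4.27. Whether these rates hold for the real libraries, where 9235 genes were called, was not tested. Alternatives used DESeq2 1.42.0, limma 3.58.1 and sva 3.50.0. Replicates are numbered in accession order, and nothing in the labels says that they are separate animals. The p-values thus measure spread between samples, which may be technical. For edgeR, that spread was estimated for each gene over all 43 libraries and shared by all groups. It was not estimated for HDM15wk and saline apart, although HDM15wk libraries differed among themselves more than saline libraries did. No 2 of the 14 libraries held identical values.

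Named genes are those with the largest changes in fold or in CPM, the strongest calls and the most abundant uncalled members of each of 69 lists, those that differ most from 4 weeks, those with the highest or lowest spread, and 10 set genes. Il17a, Lars2 and Tslp lie outside that rule and were chosen after their values were seen. The members and lists were chosen with earlier results of these data known, so lists are described by counts and medians, with no test. Some genes that the rule names are not reported here. Promoter sequences are from RefSeq, GRCm38.p6.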

Additional observations from a re-analysis of the deposited data

Results flagged for a closer look

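For each named gene in each group, the gap between the highest or lowest library and its nearest neighbour was set against the group's whole range of log2 CPM. The gap passed the 95% limit of Dixon's test in 37 of 382 gene and group pairs, and chance passes it in about 1 in 20 groups. Some of these genes were named for a high spread or after their values were seen, so this count is not to be read against that rate. The gap passed in 26 pairs of HDM15wk and 11 of saline, and in 20 of them the library apart was HDM15wk replicate 1. Each value below is the gap as a share of the range, with the CPM of the library apart beside the range of the other 6.

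HDM15wk replicate 1 was apart at the high end for C1qa (0.607 of the range, 246 CPM beside 91.9 to 135 CPM), Cd74 (0.719 of the range, 6924 CPM beside 2093 to 2929 CPM) and Csf1r (0.571 of the range, 283 CPM beside 144 to 192 CPM). It was also the highest for Ctsd (0.674 of the range, 9624 CPM beside 4073 to 5392 CPM), Fabp5 (0.642 of the range, 782 CPM beside 454 to 552 CPM) and Hp (0.658 of the range, 1889.9 CPM beside 577 to 867 CPM). The same held for Krt7 (0.785 of the range, 383 CPM beside 142 to 176 CPM), Lars2 (0.752 of the range, 15519.7 CPM beside 2615 to 4071 CPM) and Lrg1 (0.576 of the range, 2829 CPM beside 432 to 958 CPM). Further high values were those of Muc1 (0.719 of the range, 1921 CPM beside 484 to 713 CPM), Sftpc (0.572 of the range, 27370.5 CPM beside 10682 to 15974 CPM) and Stat6 (0.642 of the range, 202 CPM beside 150.0 to 167 CPM). At the low end, HDM15wk replicate 1 was apart for Bub1b (0.593 of the range, 9.53 CPM beside 15.5 to 21.6 CPM), Clec7a (0.584 of the range, 216 CPM beside 390.4 to 596 CPM) and Gbp7 (0.662 of the range, 12.8 CPM beside 45.4 to 86.4 CPM). Low values were also found for Ifit2 (0.621 of the range, 5.14 CPM beside 12.1 to 20.2 CPM), Igf1 (0.787 of the range, 84.1 CPM beside 165 to 197 CPM) and Il18r1 (0.6 of the range, 50.5 CPM beside 89.2 to 130.2 CPM). It was the lowest for Il33 (0.777 of the range, 117 CPM beside 556 to 869 CPM) and Il5ra (0.686 of the range, 2.63 CPM beside 5.17 to 6.99 CPM) too. This library also held the highest share of counts in the top 100 genes of its group, with a gap of 0.691 of the range.

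HDM15wk replicate 2 was the lowest of its group for Erv3 (0.797 of the range, 0 CPM beside 2.36 to 4.64 CPM). HDM15wk replicate 4 was the highest of its group for Ctsk (0.635 of the range, 1021 CPM beside 557 to 695 CPM), Duox1 (0.604 of the range, 76 CPM beside 3.04 to 11.1 CPM) and Me1 (0.774 of the range, 450.1 CPM beside 256 to 291 CPM). That library was the highest for Osm (0.666 of the range, 23.9 CPM beside 6.84 to 10.4 CPM) as well. HDM15wk replicate 4 was the lowest of its group for Inmt (0.649 of the range, 59.1 CPM beside 143 to 232 CPM). Saline replicate 1 was the highest of its group for Cd80 (0.633 of the range, 2.53 CPM beside 1.21 to 1.6 CPM) and Sftpc (0.578 of the range, 10988 CPM beside 7729.6 to 8966 CPM). Saline replicate 3 was the highest of its group for Gata3 (0.652 of the range, 21.4 CPM beside 16.4 to 18 CPM), Npy (0.695 of the range, 0.842 CPM beside 0 to 0.133 CPM) and Scgb1a1 (0.645 of the range, 24026 CPM beside 13382 to 16476 CPM). Saline replicate 3 was the lowest of its group for Acly (0.587 of the range, 193 CPM beside 265 to 331 CPM), Fpr1 (0.621 of the range, 3.18 CPM beside 7.58 to 12.7 CPM) and Siglecf (0.632 of the range, 3.56 CPM beside 10.9 to 20.5 CPM). It was the lowest for Tek (0.574 of the range, 343 CPM beside 404 to 456 CPM) as well. Saline replicate 5 was the lowest of its group for Inmt (0.637 of the range, 876 CPM beside 1080.3 to 1217 CPM). Saline replicate 7 was the highest of its group for Clec1a (0.615 of the range, 169 CPM beside 126 to 141 CPM).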

How the results depend on the processing

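Among 191 named genes, 46 crossed the threshold under at least 1 of 28 alternatives. No direction reversed where the gene passed in the main fit or in the alternative. Many of these genes were named for strong calls or large changes, which favours a stable direction. Over all 9235 called genes, 8957 kept their sign with the GC and length correction, and the others reversed. With 1 library left out at a time, 8643 to 9270 genes were called, against 9235 in all. A test against a 2-fold threshold (glmTreat) called 1229 genes, all of them changed at least 2-fold, with 776 higher and 453 lower. In number range 1 alone, with 5 HDM15wk libraries and 2 saline libraries, 1983 genes were called, 1045 higher and 938 lower, and 1683 of them at least 2-fold. That fit holds fewer samples, and 21 of the 189 named genes tested in it lost their call. They were Actc1, Cd40, Cd74, Clca3b, Cldn4, Csf2, Dlk1, Duox1, Gbp2, Gbp7, Il13, Il13ra2, Il18r1, Il1rl1, Il4ra, Irgm2, Retnla, Sftpa1, Sftpc, Tslp and Wnt7a. Against the isotype libraries 4 genes were called without the number-range term, and 0 with it. The share of counts in the top genes differed by 6.91 percentage points for the top 100, 5.34 for the top 20, 6.61 for the top 500 and 5.41 for the top 100 without HDM15wk replicate 1. Other counts of calls were within 1.5 times those reported. No paired analysis was possible because the labels give no replicate numbers, and those used here only name the libraries. Depth limits low genes, such as Il13 and Il17a, more than abundant ones.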
